A study of Homo sapiens with 15 samples.

Results

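The genes described here are 9 interferon-stimulated genes, PARP9, DTX3L, PARP14, IRF1, IRF9, APOL1, APOL6, IFIT1 and IFI6, out of 19775 genes with a probe set on the arrays. They were named as a list, and each was read from whichever of its probe sets was brightest on average across the 15 arrays, with the gene's other probe sets as a check. The cells were Caco-2, a human colon carcinoma line of epithelial cells, used undifferentiated and treated for 24 h in serum-free medium, and total RNA from each treatment was read on 1 Affymetrix array. A total of 12 arrays came from cells given fermentation fluid at 10% by volume, cleared of bacteria by centrifugation, from a 48 h colon simulation with 0%, 1% or 2% polydextrose, a glucose polymer that is digested poorly. The simulator has 4 connected vessels, each of which gave 1 array per concentration: vessel 1 mimics the ascending, vessel 2 the transverse and vessel 3 the descending colon, and vessel 4 the sigmoid colon with the rectum. The other 3 arrays were 5 mM butyrate, a short-chain fatty acid made by gut bacteria, 100 mM NaCl and medium alone. The labels list no repeated simulation or culture, so p-values measure only the spread between these single arrays. Unlike responses of the vessels and technical variation both enter that spread and cannot be told apart in it.

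Interferons are secreted proteins that signal through cell-surface receptors and JAK kinases to STAT transcription factors. Type I and type III interferons activate a complex of STAT proteins with IRF9 that binds the interferon-stimulated response element (ISRE), while interferon gamma activates STAT dimers that bind the gamma-activated site (GAS) and induce IRF1. The genes switched on in this way include antiviral effectors such as IFIT1, parts of the antigen presentation machinery, and the ubiquitin ligase DTX3L with its partner PARP9. In the intestinal epithelium these genes are known for their part in defence against viruses and in presenting antigen to T cells.

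Promoter windows were read to show which of these elements the genes carry near their start. The windows ran from 250 bases before to 50 bases after the gene start in RefSeq's GRCh38.p14 annotation, and 7 of the 9 genes had an entry, PARP9 with a pair of starts. The ISRE was searched as GAAANNGAAA and the GAS as TTCNNNGAA on both strands. The letters of the ISRE were present for 5 of the 7 genes, against 3.57% of 35116 windows of all genes, and those of the GAS for 3 of the 7, against 7.66%. Each sequence below is the stretch around the matches, 5′ to 3′ in the direction of the gene, with the matched letters in capitals.
DTX3L, chr3:122564312-122564341, plus strand: ggagggacctccagggaagcGAAACTGAAA
PARP9, chr3:122564322-122564351, minus strand: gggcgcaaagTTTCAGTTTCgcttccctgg
PARP14, chr3:122680779-122680838, plus strand: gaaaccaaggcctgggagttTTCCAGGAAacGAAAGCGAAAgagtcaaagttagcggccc
IFIT1, chr10:89392487-89392549, plus strand: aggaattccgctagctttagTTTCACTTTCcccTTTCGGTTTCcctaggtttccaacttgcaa
IFI6, chr1:27672256-27672368, minus strand: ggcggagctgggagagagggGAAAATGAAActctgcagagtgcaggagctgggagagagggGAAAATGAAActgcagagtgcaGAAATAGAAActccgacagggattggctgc
IRF1, chr5:132490869-132490917, minus strand: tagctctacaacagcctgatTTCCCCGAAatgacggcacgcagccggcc
IRF9, chr14:24161182-24161230, plus strand: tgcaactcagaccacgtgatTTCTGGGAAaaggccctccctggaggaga

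DTX3L and PARP9 lie on opposite strands, and 1 ISRE match, at chr3:122564332-122564341, falls in both of their windows. PARP14 lies on the same chromosome and had 1 GAS match followed by 1 ISRE match. IFIT1 had 2 ISRE matches and IFI6 had 3, while IRF1 and IRF9 each had 1 GAS match. ISRE letters were thus present for DTX3L, PARP14, IFIT1, IFI6 and PARP9, the last at 1 of its starts, and absent from the windows of IRF1 and IRF9. Whether these letters bear on the response to polydextrose was not tested.

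**Figure D1:**
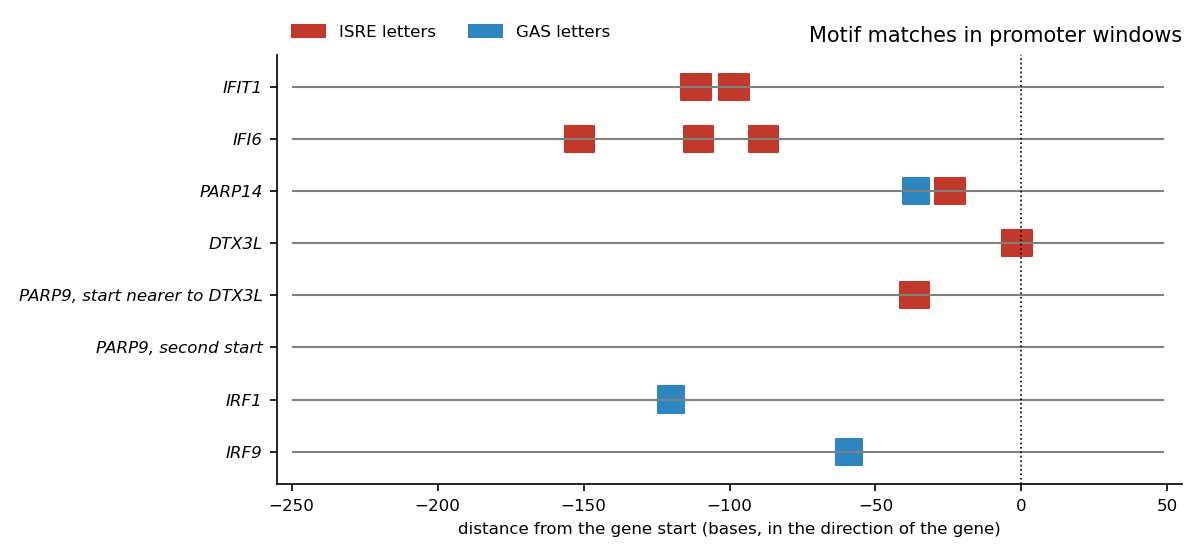
Position of ISRE (red) and GAS (blue) letters in the promoter windows of the 7 genes with a RefSeq entry, as the distance in bases from the gene start in the direction of the gene. Each line is 1 window, and PARP9 has one for each of its starts. The window of the PARP9 start farther from DTX3L held no match.

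The deposited values are on a log2 scale, on which a difference of 1 is a 2-fold difference, and no depth exists for an array. A level under log2 5 was treated as too low to measure well, and a gene was tested where at least 4 of the 12 fluid arrays were at 5 or above. All 15 arrays had 42.3% to 44.1% of genes at 5 or above. In 1 sign of RNA quality, the ACTB 3′ probe set exceeded the 5′ one by log2 0.37 to 0.64 in the arrays of vessels 2 to 4 and by 0.62 to 0.92 in those of vessel 1, ranges that overlap, and by 0.59 with butyrate, 0.64 with NaCl and 0.95 with medium. Of 12 epithelial markers 6 were tested, among them EPCAM, CDH1, KRT8 and KRT18, all above log2 12 in every array, while VIL1, CDX2, LGALS4, GPA33, ALPI and SI stayed under 5. All 8 leukocyte markers that could be matched stayed under 5 in every array, as did 7 of 8 fibroblast markers. The exception was COL1A1, a collagen gene, at 8.13 with butyrate, 3.29 with NaCl, 1.37 with medium and 5.26 to 8.26 in the fluids.

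The 9 genes formed separate patterns across the 15 arrays. PARP9, DTX3L and PARP14 were low with butyrate and fell with polydextrose, IFIT1 and IFI6 were high with butyrate and rose with polydextrose, and IRF1 and IRF9 passed no test. APOL1 and APOL6 were under log2 5 in all 12 fluid arrays and were therefore not tested, whereas the other 7 genes were at 5 or above in all 12.

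**Figure D2:**
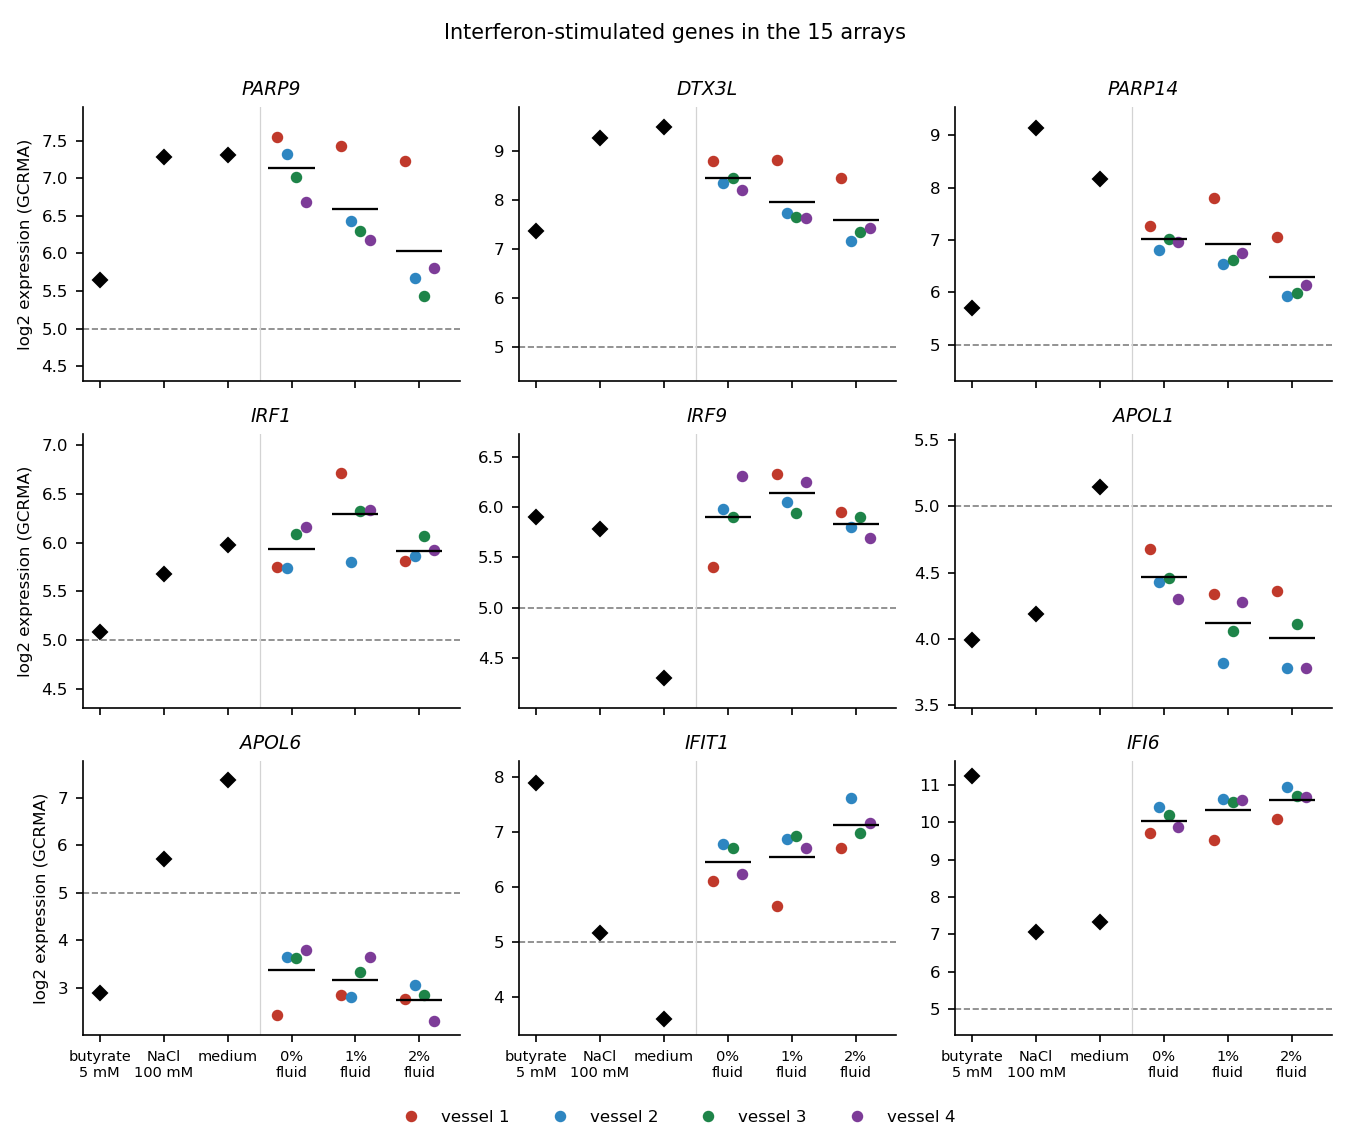
Log2 expression of the 9 genes, 1 panel per gene, with the single butyrate, NaCl and medium arrays as diamonds and the 4 vessels of each fluid as coloured points. The bar is the mean of 4 vessels and the dashed line is log2 5. PARP9, DTX3L and PARP14 are highest in vessel 1 at each concentration, and IFIT1 and IFI6 are lowest there.

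PARP9, an ADP-ribosyltransferase family member that works as the partner of DTX3L, was at log2 5.65 with butyrate, 7.28 with NaCl and 7.31 with medium. In the fluids of vessels 1, 2, 3 and 4, in this order, it was at 7.54, 7.32, 7.01 and 6.69 with 0% polydextrose, at 7.42, 6.44, 6.30 and 6.18 with 1% and at 7.22, 5.67, 5.43 and 5.80 with 2%. In vessel 1 the levels lay close together, while in each of vessels 2 to 4 it was lower at 1% than at 0% and lower again at 2%. The lowest of the 15 arrays was 2% in vessel 3, next to the butyrate array, and the highest was 0% in vessel 1. A second PARP9 probe set stayed between 1.74 and 2.55 in every array and could not serve as a check.

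DTX3L, the ubiquitin ligase of the pair, was at log2 7.35 with butyrate, 9.25 with NaCl and 9.48 with medium. In vessels 1 to 4 it was at 8.79, 8.34, 8.44 and 8.20 with 0% polydextrose, 8.81, 7.72, 7.65 and 7.63 with 1% and 8.44, 7.16, 7.34 and 7.42 with 2%. Medium and NaCl were the highest arrays, all vessel 1 fluids followed close to the 0% fluids, and the 2% fluids of vessels 2 to 4 lay around the butyrate level. The array reads DTX3L with 1 probe set.

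PARP14, which transfers single ADP-ribose units and is known as a coactivator of STAT6, was at log2 5.71 with butyrate, 9.14 with NaCl and 8.16 with medium. In vessels 1 to 4 it was at 7.27, 6.81, 7.03 and 6.96 with 0% polydextrose, 7.81, 6.55, 6.61 and 6.74 with 1% and 7.07, 5.94, 5.99 and 6.15 with 2%. NaCl gave the highest level of the 15 arrays and butyrate the lowest, and every fluid lay below medium. A second PARP14 probe set stayed between 1.68 and 2.496 throughout.

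IFIT1, which binds viral RNA that lacks the host's cap methylation, was at log2 7.88 with butyrate, 5.16 with NaCl and 3.605 with medium. In vessels 1 to 4 it was at 6.11, 6.77, 6.70 and 6.24 with 0% polydextrose, 5.65, 6.87, 6.92 and 6.70 with 1% and 6.71, 7.62, 6.98 and 7.16 with 2%. Butyrate was the highest array, medium and NaCl were the lowest, and all 12 fluids lay between them. IFI6, a small membrane protein with antiviral and survival roles, was at 11.25 with butyrate, 7.06 with NaCl and 7.34 with medium. Its fluids were at 9.71, 10.41, 10.20 and 9.87 with 0%, 9.53, 10.63, 10.55 and 10.60 with 1% and 10.09, 10.96, 10.72 and 10.68 with 2%. The order of conditions was that of IFIT1 except that NaCl was the lowest. Both genes have 1 probe set.

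IRF1, a transcription factor induced by interferon gamma, was at log2 5.08 with butyrate, 5.68 with NaCl and 5.97 with medium, and its fluids ranged over 5.74 to 6.16 with 0% polydextrose, 5.80 to 6.71 with 1% and 5.81 to 6.07 with 2%. Its highest array was 1% in vessel 1. The second IRF1 probe set was at 5.01 to 6.31 and also had its highest fluid value, 6.10, at 1% in vessel 1, but it put NaCl highest of all arrays. IRF9, a DNA-binding partner of STAT proteins, was at 5.90 with butyrate, 5.78 with NaCl and 4.30 with medium. Its fluids were at 5.40 to 6.31 with 0%, 5.94 to 6.32 with 1% and 5.69 to 5.95 with 2%, and these ranges overlapped. Medium was the only array with IRF9 under 5. The other IRF9 probe set also matches RNF31, put medium at 4.83, within the range of 4.34 to 5.18 over all arrays, and did not show this low value.

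APOL1, a lipid-binding protein of serum that kills trypanosomes, reached log2 5 in medium alone, at 5.15, and was at 3.99 with butyrate, 4.19 with NaCl and 3.78 to 4.68 in the fluids. APOL6, a cytoplasmic relative of APOL1, was at 2.90 with butyrate, 5.70 with NaCl and 7.37 with medium, and at 2.43 to 3.80 with 0% polydextrose, 2.80 to 3.64 with 1% and 2.31 to 3.05 with 2%. Its level was thus measurable with medium and NaCl and below the limit in all the other arrays. A second APOL6 probe set gave 2.78 with butyrate, 4.34 with NaCl and 6.67 with medium, and 2.27 to 4.20 in the fluids. The remaining APOL6 probe sets stayed under 5 in all arrays.

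The first comparison asked how the cells respond to fluids in which 2% polydextrose had been fermented, against fluids with none. PARP9 fell by 1.11 on the log2 scale, DTX3L by 0.85 and PARP14 by 0.73, while IFIT1 rose by 0.66 and IFI6 by 0.56. The SE of these changes was 0.19, 0.14, 0.14, 0.16 and 0.12, and limma's adjusted p over the 8737 genes tested was 0.0061, 0.00482, 0.0103, 0.0215 and 0.0147, in the same order. The levels at 2% and 0%, as means over 4 vessels (± SD, n = 4), were 6.03 ± 0.81 and 7.14 ± 0.37 for PARP9, 7.59 ± 0.57 and 8.44 ± 0.25 for DTX3L, and 6.29 ± 0.53 and 7.02 ± 0.19 for PARP14. They were 7.12 ± 0.38 and 6.45 ± 0.33 for IFIT1 and 10.61 ± 0.37 and 10.05 ± 0.32 for IFI6. Each of these 5 genes moved the same way in 4 of 4 vessels. IRF1 differed by -0.02 ± 0.15 (SE, adjusted p = 0.947) and IRF9 by -0.06 ± 0.17 (adjusted p = 0.834). A change in every cell and a change in only some of the cells cannot be told apart in such samples.

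The count of 5 of 7 tested genes stands beside 20.8% of all 8737 genes, of which 9.65% rose and 11.2% fell. With all 4 vessels the groups overlapped for each of the 7 genes, and 2.29% of all genes were higher and 2.6% lower without overlap. In vessels 2 to 4 alone the 2% arrays lay below all 0% arrays for PARP9, DTX3L and PARP14 and above them for IFIT1 and IFI6, where 27.7% of all genes were lower and 23.8% higher without overlap. Without vessel 1 the changes were -1.37 for PARP9, -1.02 for DTX3L, -0.91 for PARP14, 0.68 for IFIT1 and 0.63 for IFI6, and all 5 passed. With all 12 arrays the calls rest on the vessel as a block: without it no gene of the 8737 passed, and the adjusted p of the 5 genes was 0.214 to 0.231. Without both the block and the arrays of vessel 1 the 5 genes passed, with adjusted p of 8.5e-05 to 0.0152. IFIT1 and IFI6 lost their calls when the array of 0% in vessel 2, 0% in vessel 3, 2% in vessel 2 or 2% in vessel 4 was left out, with adjusted p up to 0.0783 and 0.0532, and IFIT1 also without 0% in vessel 4.

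**Figure D3:**
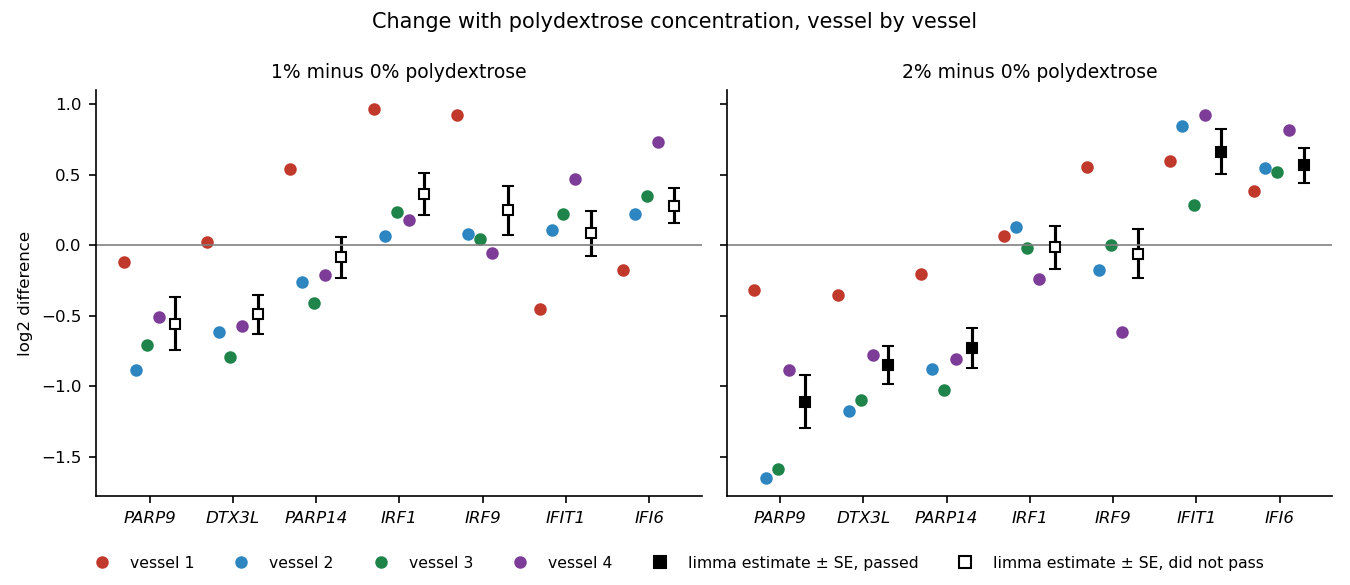
Log2 difference from the 0% fluid of the same vessel for the 7 tested genes, at 1% (left) and 2% (right), with limma's estimate and its SE as squares, filled where the adjusted p was under 0.05. At 2% PARP9, DTX3L and PARP14 lie below 0 and IFIT1 and IFI6 above 0 in every vessel, and at 1% no square is filled.

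At 1% against 0% polydextrose, which shares the 0% arrays with the comparison above, none of the 7 genes passed in limma, where 4.78% of all genes did, 2.63% higher and 2.15% lower. An unadjusted p under 0.05 was found for 4 of the 7, DTX3L, PARP9, IRF1 and IFI6, where 2176 of all 8737 genes had one. DTX3L differed by -0.49 ± 0.14 (SE, adjusted p = 0.0703) and PARP9 by -0.56 ± 0.19 (adjusted p = 0.116), whereas PARP14 differed by -0.09 ± 0.14 and IFIT1 by 0.08 ± 0.16. Vessel 1 and the later vessels did not move together: PARP14 was 0.54 higher at 1% in vessel 1 and 0.21 to 0.41 lower in vessels 2 to 4. In vessels 2 to 4 the 1% arrays lay below all 0% arrays for PARP9, DTX3L and PARP14 and above them for IFI6, where 18.9% of all genes were lower and 18.6% higher. When the arrays of vessel 1 were left out, limma's adjusted p was 0.00993 for DTX3L, 0.0244 for PARP9, 0.0374 for PARP14 and 0.037 for IFI6, with changes of -0.66, -0.70, -0.30 and 0.43. Leaving out the 0% array of vessel 1 alone gave calls for DTX3L, PARP9 and PARP14, with adjusted p of 0.00554, 0.018 and 0.0379.

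At 2% against 1% none of the 7 genes and 0.0% of all genes passed in limma, where 1608 of 8737 genes had an unadjusted p under 0.05. The differences were -0.64 ± 0.14 for PARP14 (SE, adjusted p = 0.141), 0.58 ± 0.16 for IFIT1 (adjusted p = 0.155), -0.55 ± 0.19 for PARP9 (adjusted p = 0.204) and -0.36 ± 0.14 for DTX3L (adjusted p = 0.229). IFI6 differed by 0.28, IRF1 by -0.38 and IRF9 by -0.31, with adjusted p of 0.262, 0.239 and 0.358. In vessels 2 to 4 the 2% arrays lay below all 1% arrays for PARP9, DTX3L, PARP14 and IRF9 and above them for IFIT1 and IFI6, where 16.5% of all genes were lower and 11.6% higher. PARP14 passed without the arrays of vessel 1, with an adjusted p of 0.0176, and without the 0% array of vessel 1 both PARP14 (adjusted p = 0.00775) and DTX3L (adjusted p = 0.0388) passed.

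The vessels were compared next, with the mean of vessels 2 to 4 set against vessel 1 over the 3 concentrations. PARP9 was lower in vessels 2 to 4 by 1.08 ± 0.18 on the log2 scale (SE), DTX3L by 0.91 ± 0.13 and PARP14 by 0.85 ± 0.14, and the limma adjusted p was 0.00282, 0.00156 and 0.00231. IFIT1 was higher by 0.73 ± 0.15 and IFI6 by 0.74 ± 0.12, with adjusted p of 0.00675 and 0.00225. The levels in vessels 2 to 4 and vessel 1 were 6.32 ± 0.63 and 7.40 ± 0.16 for PARP9 and 10.51 ± 0.32 and 9.77 ± 0.29 for IFI6 (SD, n = 9 and 3 arrays). IRF1 differed by -0.06 and IRF9 by 0.09, with adjusted p of 0.78 and 0.70. The 5 of 7 genes stand beside 34.7% of all genes, 15.4% higher and 19.3% lower in vessels 2 to 4. The ACTB 3′ to 5′ difference given above lay mostly lower in vessels 2 to 4 than in vessel 1, and its part in the result was not tested. The 5 genes passed without each of the 12 arrays in turn, and none passed when the concentration was left out of the model, with adjusted p of 0.0637 to 0.0784.

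Whether the response to concentration differed between vessels 2 to 4 and vessel 1 was tested as a difference of slopes per 1% polydextrose. The slope of PARP9 was lower in the later vessels by 0.53 ± 0.14 (SE, adjusted p = 0.0976), that of DTX3L by 0.33 ± 0.12 (adjusted p = 0.166) and that of PARP14 by 0.35 ± 0.12 (adjusted p = 0.163). None of the 7 genes passed in limma, where 1.17% of all genes did, 0.343% with a higher and 0.824% with a lower slope. PARP9, DTX3L, PARP14 and IRF9 had an unadjusted p under 0.05, where 1739 of all 8737 genes had one. The slope difference of IFIT1 was 0.04 ± 0.19 and that of IFI6 was 0.12 ± 0.14. PARP14 passed without the array of 1% in vessel 1 or of 2% in vessel 1, and its slope difference was 0.14, of the opposite sign, without the array of 0% in vessel 1.

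The single arrays allow no test. A gene was taken as past 2-fold at a log2 difference of at least 1 with the brighter side at 6 or more, and a side under 5 was set to 5, which makes the difference a bound. With 5 mM butyrate against medium, IFI6 was 3.91 higher on the log2 scale (14.98-fold) and IFIT1 at least 2.88 higher (7.39-fold). PARP14 was 2.45 lower (5.48-fold), DTX3L 2.13 lower (4.37-fold), PARP9 1.66 lower (3.16-fold) and APOL6 at least 2.37 lower (5.18-fold). All 6 of the genes bright enough to be compared were thus past 2-fold, beside 31.2% of the 8057 genes compared, 15.6% up and 15.6% down. IRF1, IRF9 and APOL1 were under log2 6 on both sides.

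Against NaCl in place of medium, the butyrate array was 4.19 higher for IFI6 and 2.73 higher for IFIT1, and 3.43 lower for PARP14, 1.90 lower for DTX3L and 1.63 lower for PARP9, where 33.0% of all genes compared were past 2-fold, 15.9% higher and 17.0% lower. The NaCl array itself differed from medium past 2-fold for APOL6 alone, 1.67 lower (3.18-fold), beside 16.6% of all genes, 8.93% higher and 7.67% lower. PARP14 was 0.98 higher with NaCl than with medium (1.97-fold), short of the count, and PARP9, DTX3L and IFI6 differed by -0.02, -0.23 and -0.28.

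The fluids were also set against medium, and these comparisons share the 1 medium array. With 0% polydextrose the fluids were 2.70 higher for IFI6 and at least 1.45 higher for IFIT1, and lower by 1.15 for PARP14, by 1.04 for DTX3L and by at least 2.37 for APOL6, in 4 of 4 arrays each, where 12.6% of all genes were past 2-fold, 7.81% higher and 4.8% lower. PARP9 differed by -0.17, with 2 of 4 arrays above medium. With 1% the same genes were past 2-fold, and IRF9 was at least 1.14 higher, where 19.7% of all genes were past 2-fold, 10.8% higher and 8.88% lower. IRF9 was not compared at 0% and 2%, where its means of 5.90 and 5.84 were under log2 6. As measured it was 1.59, 1.84 and 1.53 higher than medium at 0%, 1% and 2%. These values rest on the 1 medium level of 4.30, which the other IRF9 probe set did not show. With 2% PARP9 was lower by 1.28, DTX3L by 1.89 and PARP14 by 1.88, APOL6 was at least 2.37 lower, IFI6 was 3.27 higher and IFIT1 at least 2.12 higher, where 23.2% of all genes were past 2-fold, 11.7% higher and 11.4% lower. Against NaCl in place of medium, 3 genes in place of 5 were past 2-fold with 0% polydextrose.

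As a mean over 4 vessels, the 2% fluids were within 2-fold of butyrate for the 5 genes that could be compared. This was general, as only 5.0% of all genes compared were past 2-fold, 3.12% higher and 1.88% lower. The mean of the 2% fluids minus the butyrate array was 0.38 for PARP9, 0.24 for DTX3L, 0.58 for PARP14, -0.77 for IFIT1 and -0.64 for IFI6. The vessel 1 array was the exception and lay past 2-fold from butyrate for all 5, with 1.57 for PARP9, 1.08 for DTX3L, 1.36 for PARP14, -1.18 for IFIT1 and -1.16 for IFI6. In vessels 2 to 4 the differences ran between -0.90, for IFIT1 in vessel 3, and 0.44, for PARP14 in vessel 4. All 4 arrays at 2% lay below butyrate for IFIT1 and IFI6 and above it for PARP14, while for PARP9 and DTX3L they lay on both sides.

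Butyrate against medium and 2% against 0% polydextrose share no array, so their values can be set side by side. The 5 genes that passed at 2% had the same sign with butyrate, and so had 1782 of all 1820 genes that passed (97.9%), so the shared direction was general on these arrays. Pearson's r between these differences was 0.918 across the 7 tested genes and 0.805 across all 8737. Genes are not independent replicates, and the arrays were normalized together. IRF9, which did not pass, had 1.60 for butyrate against medium, as measured, and -0.06 for 2% against 0%.

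**Figure D4:**
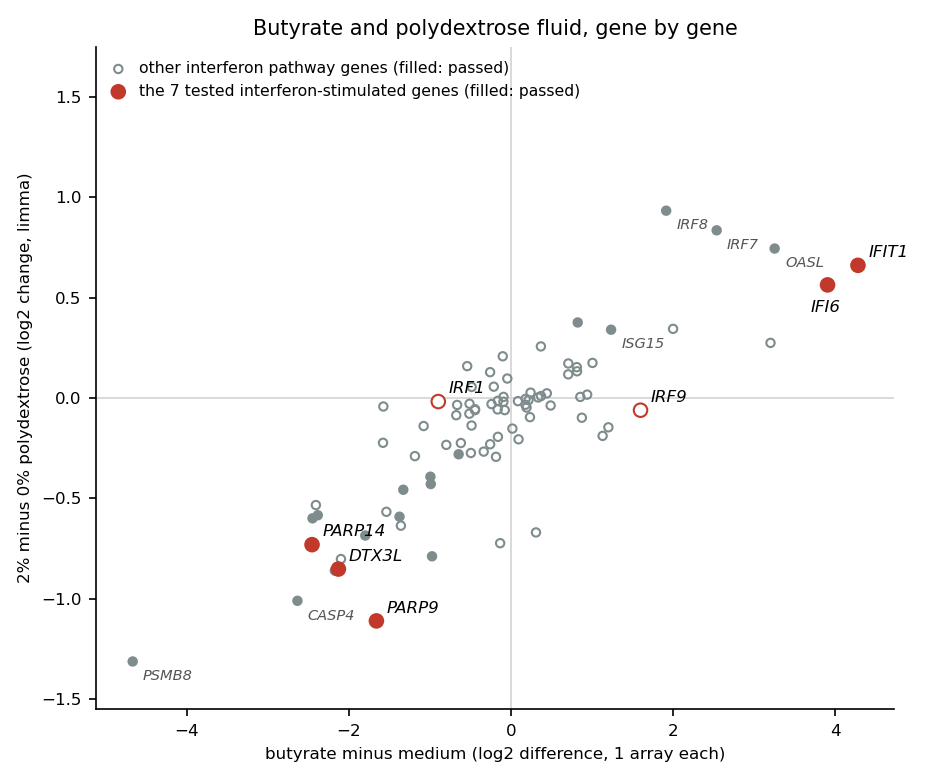
Butyrate minus medium (x axis, 1 array each, values as measured also where the medium or butyrate level was under log2 5) against the change at 2% minus 0% polydextrose (y axis, limma) for the 7 tested genes (red) and 79 other interferon pathway genes (grey), in log2 units, filled where the polydextrose change passed. Filled points lie in the lower left or the upper right.

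Within the fluids the 7 tested genes fell into blocks. Over the 12 fluid arrays Pearson's r was 0.97 between PARP9 and DTX3L, 0.90 and 0.94 between PARP14 and each of them, and 0.94 between IFIT1 and IFI6. The blocks ran opposite to each other, with r = -0.92 between DTX3L and IFI6. IRF1 and IRF9 had r = 0.65 with each other and -0.48 to 0.40 with the other 5 genes. These correlations describe arrays that share vessels and simulations. Over all 15 arrays the nearest gene was BEX3 for PARP9, KIF22 for DTX3L, NELFCD for PARP14 and GARS1 for IRF1. It was MYZAP for IRF9, TUBA1A for IFIT1 and SCPEP1 for IFI6, and r was between 0.95 and 0.99 for the 7 genes. Each is the highest r out of all genes tested, so a high value alone marks no particular relation.

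Other genes of the pathway were read from lists by role. The ligands were not measurable: all 8 listed interferon and interferon-induced chemokine genes, such as IFNB1 and IFNL1, stayed under log2 5 in every array. Receptors and JAK kinases were all measured, and 0 of 9 passed at 2% against 0% in limma, where 20.8% of all genes did. IFNGR2, a chain of the interferon gamma receptor, had the smallest p, with -0.64 ± 0.20 (SE, adjusted p = 0.0549). None of 5 tested inhibitors of the pathway and none of 5 tested nucleic acid sensors passed either. An unadjusted p under 0.05 was found for IFNGR2 and JAK1 (0.17) among the receptors and kinases and for none of the inhibitors. Among the sensors it was found for STING1 (-0.72, adjusted p = 0.0972). Of all 8737 genes tested, 3184 had such a p, and these lists are short.

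Of 5 tested STAT and IRF transcription factors 3 passed as higher at 2% against 0% and none as lower. Among all genes tested 9.65% rose and 11.2% fell. Of the 3, IRF7 and STAT3 were measured well on both sides, and IRF8 was mostly under log2 5 at 0%. IRF7, which drives type I interferon genes, was at log2 8.50, 9.74, 9.75 and 9.57 in vessels 1 to 4 at 2%, against 8.12, 8.68, 8.78 and 8.63 at 0%. Its change was 0.84 ± 0.11 (SE, limma adjusted p = 0.0023), and it was 2.54 higher with butyrate than with medium and 1.31 higher with NaCl than with medium. At 1% against 0% IRF7 passed too (0.59, adjusted p = 0.0269), but in 14 of 24 alternatives, and not without the block, with only the 8 arrays compared or in 8 of the 12 fits that left out an array. STAT3 rose by 0.38 at 2% against 0% (adjusted p = 0.0119). IRF8, best known from myeloid cells and B cells, passed as well (adjusted p = 0.0223), at 4.32, 5.75, 6.26 and 6.21 in vessels 1 to 4 at 2% and 4.38, 5.04, 4.66 and 4.73 at 0%. Because 3 of its 4 arrays at 0% and all its vessel 1 arrays were under log2 5, no size is given for its change. IRF8 reached the signal filter mainly through the 1% and 2% arrays in which it was high, so little can be read from its call.

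Of 25 tested antiviral effectors 2 rose, 4 fell and 19 did not pass at 2% against 0%, where 20.8% of all genes passed, with a list median of -0.19 against -0.01 for all genes tested. OASL, an oligoadenylate synthetase relative, rose by 0.75 (limma adjusted p = 0.0436) and ISG15, a ubiquitin-like modifier, by 0.34 (adjusted p = 0.00808). TRIM14 fell by 0.79, OAS3 by 0.59, IFITM2 by 0.43 and IFIT5 by 0.39, with adjusted p of 0.017, 0.00799, 0.0194 and 0.0147. IFIT5 thus fell where its relative IFIT1 rose. MX1, a widely used marker of type I interferon, was above log2 5 in the NaCl array alone, at 5.82, against 3.24 with medium.

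Interferon gamma targets and antigen presentation genes fell or did not pass. PSMB8, an immunoproteasome subunit, was at log2 7.32, 5.36, 4.95 and 5.28 in vessels 1 to 4 at 2% and at 7.52, 6.91, 6.78 and 6.96 at 0%, a change of -1.31 ± 0.26 (SE, limma adjusted p = 0.0113). It was at least 3.99 lower with butyrate than with medium. The peptide transporter subunits TAP2 (-0.68) and TAP1 (-0.28) and the peptide-trimming proteases ERAP1 (-0.86) and ERAP2 (-0.58) fell too. With PSMB8 this made 5 of 15 tested genes, with none higher, where 11.2% of all genes fell and 9.65% rose. ERAP1 was under log2 5 at 2% in vessels 3 and 4, at 4.65 and 4.99, so the size of its change is uncertain. B2M, the light chain of class I molecules, differed by 0.06 (adjusted p = 0.606). Among 5 tested interferon gamma targets the inflammatory caspase CASP4 fell by 1.01 (adjusted p = 0.0234) and the GTPase GBP3 by 0.60 (adjusted p = 0.0178). Of 9 other PARP and DTX genes PARP12 alone passed, with -0.46 (adjusted p = 0.0424), and the 1 tested APOL relative, APOL2, differed by 0.0031 (adjusted p = 0.987).

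**Figure D5:**
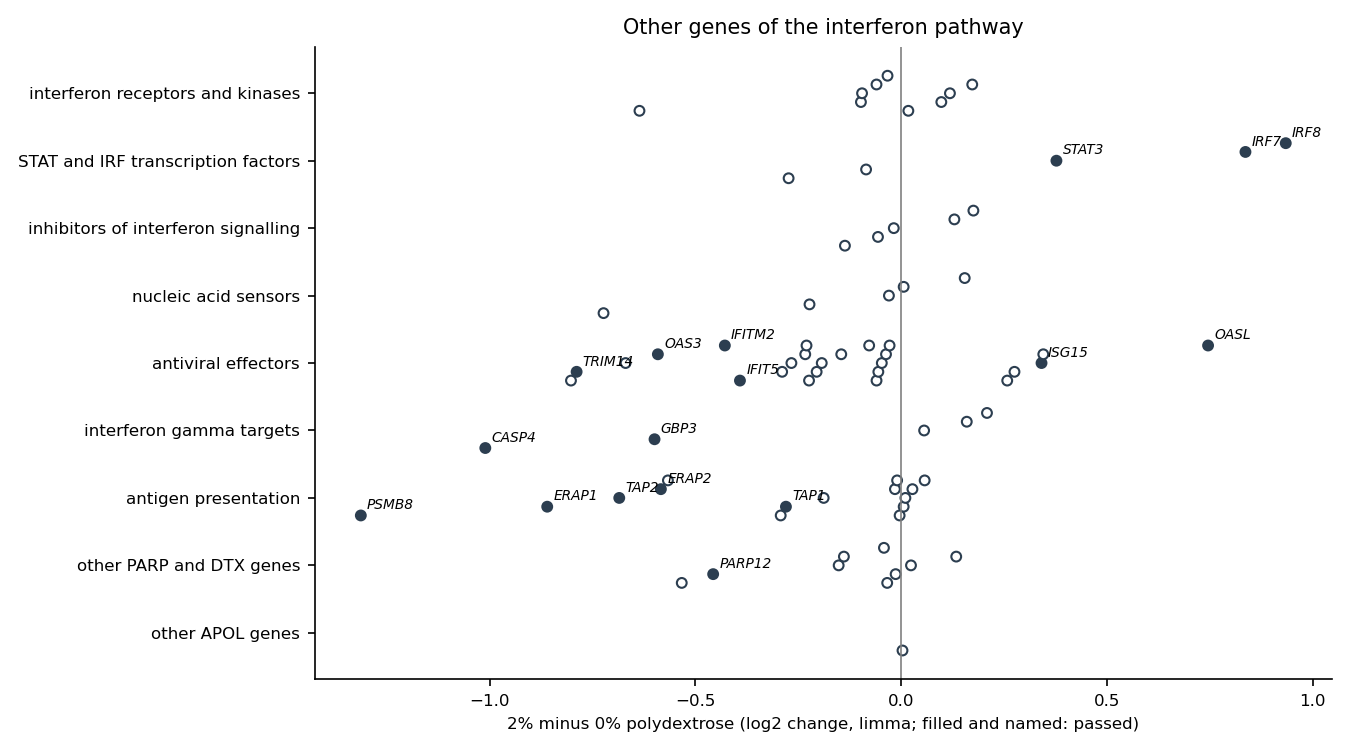
Log2 change at 2% minus 0% polydextrose for the 79 tested pathway genes outside the 9 interferon-stimulated genes, by role, with genes that passed filled and named. Antigen presentation genes that passed lie left of 0 and transcription factors that passed lie right of 0, while antiviral effectors that passed lie on both sides.

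In all, 17 of these 79 pathway genes passed at 2% against 0%, beside 20.8% of all genes. They were 12 down and 5 up, the latter with IRF8, which was mostly under log2 5 at 0%. All 17 had the sign of the butyrate difference. Without the vessel block none passed, and without the arrays of vessel 1 all 17 did, with or without the block. TAP1, PARP12 and OASL passed in 9, 10 and 11 of 24 alternatives. When each of the 12 arrays was left out in turn 6 to 16 of the 17 passed, with 6 left without 0% in vessel 2, 0% in vessel 3, 2% in vessel 2 or 2% in vessel 4. ISRE letters were present for 10 of the 11 genes in the promoter table that fell. These were ERAP1, ERAP2, GBP3, IFIT5, OAS3, PARP12, PSMB8, TAP1, TAP2 and TRIM14. The letters were present for 1 of 3 that rose (ISG15) and for 18 of 52 that did not pass. Of the windows of all genes 3.57% had them. The lists differ in role, and IFIT1 and IFI6, which rose, also carry the letters. A relation of the letters to the direction of change was not tested. Between vessels 2 to 4 and vessel 1, 26 of the 79 genes passed, 9 higher and 17 lower, where 34.7% of all genes did. None of the 26 passed without the concentration term, 13 passed without 1% in vessel 1 and 16 without 2% in vessel 1. IRF7 (0.84) and STAT3 (0.27) were higher in vessels 2 to 4. PSMB8 (-1.46), TAPBP (-0.88), ERAP2 (-0.77), ERAP1 (-0.66), TAP2 (-0.62) and TAP1 (-0.23, passing in 7 of 21 alternatives) were lower there. Some levels of PSMB8 and ERAP1 in vessels 2 to 4 were under log2 5. The collagen gene COL1A1, the 1 fibroblast marker above log2 5, was at 6.57, 7.66, 8.26 and 7.75 in vessels 1 to 4 at 2% and 6.64, 6.86, 6.74 and 6.35 at 0%. It differed by 0.91 at 2% against 0% (adjusted p = 0.0556) and was 1.03 higher in vessels 2 to 4 than in vessel 1 (adjusted p = 0.0198), and its part in the results was not tested. The summed level of the 8 fibroblast markers was 7.002 to 8.41 at 2% and 6.87 to 7.23 at 0%, ranges that overlap, while the other 7 fibroblast markers and all 8 leukocyte markers were under 5.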

How the data were processed

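The authors deposited log2 values of 54675 probe sets for 15 arrays. They had been made with GCRMA, which corrects for background, normalizes across arrays and condenses probes, per the submitters' processing notes, which give no version. That the scale is log2 was inferred from the values (0.173 to 14.46), and they were not normalized again. Genes were named by the platform annotation, and 41097 probe sets had 1 symbol, 1801 several and 11777 none. No columns were left out.

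Genes at log2 5 or above in at least 4 of the 12 fluid arrays were tested (8737 of 19775) with limma 3.58.1 in R 4.3.3, with concentration and vessel as factors and 6 residual degrees of freedom, 5 for the slope difference. Two-sided p-values were adjusted over all genes tested (Benjamini-Hochberg), and a gene passed under 0.05. The procedure was tested on simulated data. Vessel positions come from the labels and pair the arrays as a block: with the concentration means removed, 10 of 12 same-vessel pairs correlated above 0.1 (median r = 0.376, others -0.114). Single-array comparisons have no test. The number of arrays limits the precision.

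The 9 genes, the 13 lists (173 genes, 165 matched) and all rules for naming were chosen with earlier results of these data known. From each list up to 3 genes with the smallest p, or the largest single-array difference, were named, and further genes that passed were named after their values were seen. The other 8 listed genes were not analysed here. Alternatives changed the filter, the probe set rule, the normalization, the variance model, the block and the arrays used. The fits that left out both vessel 1 and the block were added after the data were seen. Promoter windows came from RefSeq GRCh38.p14.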

Additional observations from a re-analysis of the deposited data

Results flagged for a closer look

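In 27 groups of 4 arrays, 4 held an array far from the other 3. A rate by chance of about 1 group in 20 holds for replicates. It does not apply here, because the 4 arrays of a group are different vessels. At 1% polydextrose the vessel 1 array was high for DTX3L, at log2 8.81, and for PARP14, at 7.81, and low for IFI6, at 9.53. At 0% the vessel 1 array was low for APOL6, at 2.43, where all levels were under 5. The 3 values at 1% come from 1 array.

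The response at 1% against 0% ran one way in vessel 1 and the other way in vessels 2, 3 and 4 for 4 genes, a difference that was not tested for 1% alone. The vessel 1 difference was 0.0183 for DTX3L and 0.54 for PARP14, where the later vessels were lower at 1%, and -0.46 for IFIT1 and -0.18 for IFI6, where they were higher. The vessel 1 array at 1% had the highest ACTB 3′ to 5′ difference of the fluids, 0.92, and its part in these values was not tested.

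Of the 79 tested pathway genes 3 had a slope per 1% polydextrose that differed between vessels 2 to 4 and vessel 1 in limma. Among all genes tested 1.17% did, 0.343% with a higher and 0.824% with a lower slope. OAS1, which senses double-stranded RNA, had a difference of -1.01 (adjusted p = 0.0409), with 8.51, 7.46, 6.59 and 6.91 at 2% and 7.80, 8.49, 8.32 and 8.08 at 0% in vessels 1 to 4. IFI27, an interferon-induced mitochondrial protein, had -0.95 (adjusted p = 0.0424), with 5.91, 5.02, 4.25 and 4.97 at 2% and 5.16, 5.83, 5.99 and 5.84 at 0%. Its levels at 2% in vessels 3 and 4 were under log2 5, so the size is uncertain. CASP4 had -0.81 (adjusted p = 0.0307), with 8.32, 6.90, 6.498 and 7.09 at 2% and 8.12, 8.16, 8.18 and 8.38 at 0%. OAS1, IFI27 and CASP4 were each higher at 2% than at 0% in vessel 1 and lower in vessels 2 to 4. None of the 3 passed without 0% in any 1 vessel, without 2% in vessel 1, 3 or 4 or without 1% in vessel 4.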

How the results depend on the processing

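Of the 7 tested genes 5 passed at 2% against 0% polydextrose, 3 with the mean of all probe sets, which put PARP9 and PARP14 under the signal limit because their second probe sets are near log2 2, and 0 with no replicate block, where the adjusted p of the 5 was 0.214 to 0.231. It was 5 without vessel 1 and the block. Leaving out each array in turn gave 3 to 5. At 1% against 0%, where 0 passed, the count was 1 with an intensity trend and robust prior, 3 with array weights, 4 without vessel 1, 2 without vessel 1 and the block and 0 to 3 when each array was left out, the 3 without 0% in vessel 1. At 2% against 1%, where 0 passed, it was 2 with array weights, 1 with only the 8 arrays compared, 1 without vessel 1, 1 without vessel 1 and the block and 0 to 2 when each array was left out. For vessels 2 to 4 against vessel 1, where 5 passed, it was 3 with the mean of probe sets and 0 without the concentration term. For the slope difference, where 0 passed, it was 4 with array weights and 0 to 1 when each array was left out. Past 2-fold, the mean of probe sets gave 3 in place of 6 genes for butyrate against medium and for 2% fluids against medium, 0 in place of 1 for NaCl against medium, 3 in place of 5 for butyrate against NaCl and for 0% fluids against medium, and NaCl in place of medium gave 3 for the 0% fluids. The estimation of array weights stopped before it converged in some fits. Of the pathway genes that passed, none changed sign.

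Signs turned for small changes that passed no test. At 2% against 0% IRF1 was 0.0168 after a second quantile normalization and -0.13 to 0.0567 with each array left out, and IRF9 was -0.28 to 0.0836. At 1% against 0% PARP14 was -0.28 to 0.0171 and IFIT1 -0.0256 to 0.25 with each array left out. For vessels 2 to 4 against vessel 1 IRF9 was -0.11 with array weights, and with each array left out IRF9 was -0.20 to 0.25 and IRF1 -0.21 to 0.19. The slope difference of IRF1 was 0.0163 with the mean of probe sets. With each array left out it was -0.68 to 0.012 for DTX3L, -0.84 to 0.14 for PARP14, -0.81 to 0.70 for IRF1, -0.90 to 0.086 for IRF9, -0.63 to 0.72 for IFIT1 and -0.37 to 0.61 for IFI6. The causes were not tested. Without a signal filter APOL1, at under log2 5 in all fluids, had -0.46 at 2% against 0% (limma adjusted p = 0.0278), and its levels there are too low to be measured well.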

Other observations

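Some interferon pathway genes differed past 2-fold between the NaCl array and medium, where 16.6% of all genes did, each from 1 array with no test. Of 23 antiviral effectors compared 2 were higher and 1 lower, and of 15 antigen presentation genes 1 was higher and 2 lower. Of 6 sensors 2 were higher, as was 1 of 4 transcription factors and 1 of 4 inhibitors. None of 8 receptors and kinases, 4 interferon gamma targets and 8 other PARP and DTX genes was past 2-fold. The RNA sensor RIGI was 2.57 higher on the log2 scale and the adaptor STING1 at least 1.38 higher. IRF7 was 1.31, TAP1 1.21, ISG20 1.13, the inhibitor PIAS1 1.11 and IFIT3 1.07 higher, while TRIM14 was 2.41, TAP2 2.06 and ERAP2 1.04 lower. With butyrate IRF7 (2.54), PIAS1 (1.01), TAP2 (-1.80) and ERAP2 (-2.38) differed from medium in the same direction past 2-fold. So did RIGI in the fluids (1.12 with 0%, 1.35 with 1% and 1.27 with 2% polydextrose) and TRIM14 in those with 1% (-1.52) and 2% (-1.61). In the butyrate array ISG20, a 3′ to 5′ RNA exonuclease, was 3.20 and the ISG15 ligase HERC5 2.00 higher than in medium, and CASP4 was 2.63, GBP3 2.45 and OAS1 2.10 lower. ISG20 was at 8.21 with butyrate, 6.14 with NaCl and 5.01 with medium, and at 8.22 to 9.61 in the 12 fluids, above medium and NaCl in all of them, and differed by 0.28 between 2% and 0% polydextrose (limma adjusted p = 0.249).

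IRF9 was listed at the same value, 5.8999, in 3 arrays, butyrate, 0% in vessel 3 and 2% in vessel 3. Equal values were not particular to IRF9. IFIT1 was at 6.7025 in 0% vessel 3 and in 1% vessel 4, and MX1 at 3.3972 with butyrate and in 0% vessels 1 and 3.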
